A study of Mus musculus with 16 samples.

Results

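Loss of Gpr161 was measured in Tail tissue that already lacked Fuz, by comparing Fuz;Gpr161 double knockout (DKO) embryos with Fuz KO embryos. The comparison took its 4 libraries by title, 2 of Tail DKO and 2 of Tail Fuz KO, out of 16 libraries in the series. All embryos were mice at E10.5, and Tail means the body below the forelimbs. Tail Fuz KO embryos were knockout for Fuz and had Gpr161, and Tail DKO embryos were knockout for Fuz and Gpr161. Both compared groups therefore lacked Fuz. Set beside them were Tail WT, Tail Gpr161 KO, Head Fuz KO and Head DKO, each with 2 libraries, where Head means the body above the third branchial arches. The labels give no allele, strain or litter, name no treatment, and leave unsaid whether a group's libraries are different embryos. All p-values therefore reflect only how much these libraries vary, which may be technical.

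Fuz belongs to the CPLANE proteins, which help build the primary cilium, the antenna on which vertebrate Hedgehog signalling runs. Gpr161 is a receptor of that cilium which raises cyclic AMP, keeps protein kinase A active and so favours the repressor form of the Gli transcription factors. When Hedgehog ligand arrives, Gpr161 leaves the cilium and Gli activators turn on target genes such as Gli1, Ptch1 and Hhip. In the caudal body at this stage, Hedgehog from the notochord and floor plate patterns the neural tube and somites, while the tail bud, kept by Wnt and FGF signals, goes on adding new tissue.

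CPM, the unit of expression here, are counts scaled to the library's adjusted total, and a fold change is Tail DKO over Tail Fuz KO on the log2 scale, with its standard error. Calls rest on edgeR's quasi-likelihood test over 21284 genes, at an adjusted p under 0.05. In Tail DKO against Tail Fuz KO, 7 genes fell and 0 rose, which is 0.0329% of the genes tested. At an unadjusted p under 0.05, 443 genes (2.08%) were lower and 343 (1.61%) were higher, and the median log2 fold change over all genes was 0.0097. The 7 that fell were Gpr161, the planar cell polarity gene Celsr1, and 5 pseudogenes, namely Rpl34-ps1, Gm9825, Atp6v0c-ps2, Gm6969 and H2-Bl. DESeq2 called 25 genes, 4 higher and 21 lower, and all 7 were among them. A fit of the 4 compared libraries alone called 2, Rpl34-ps1 and Gm9825.

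**Figure D1:**
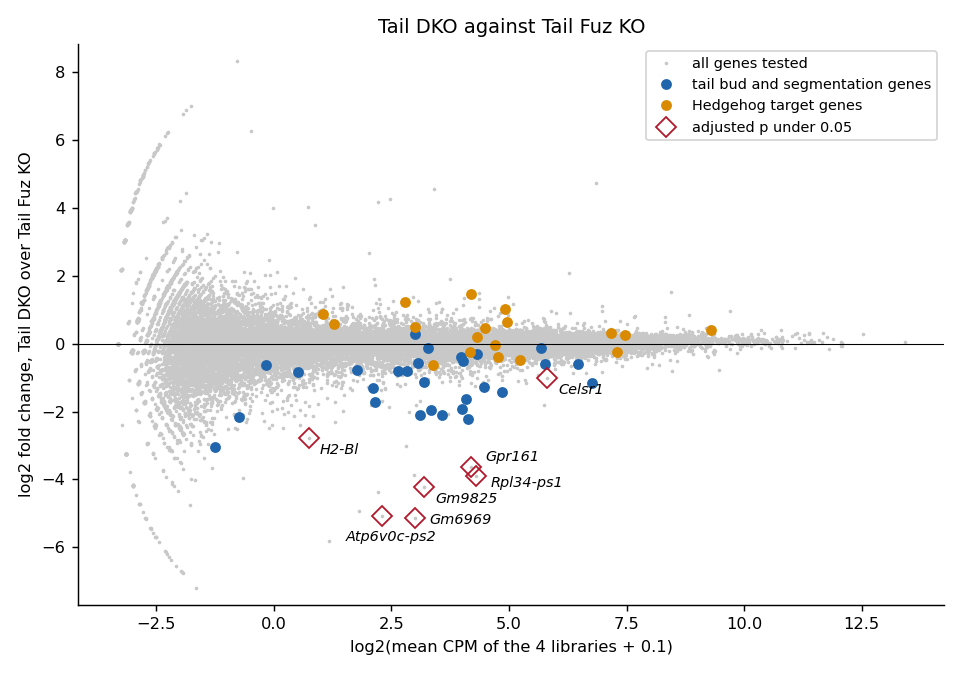
Each point is 1 of the 21284 genes tested. The horizontal axis is log2 of the mean CPM of the 4 libraries plus 0.1, and the vertical axis is the log2 fold change of Tail DKO over Tail Fuz KO. Blue points are tail bud and segmentation genes, orange points are Hedgehog target genes, and red diamonds are the 7 genes with an adjusted p under 0.05, all of them below 0.

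Total counts ran from 39736123 to 53680317 in the 4 libraries. Posterior Hox genes, which mark caudal tissue, summed to between 573.9 and 897.2 CPM in these libraries, while head identity genes summed to between 4.31 and 5.13 CPM. Xist was at most 1.22 CPM in all 4, and the Y-linked gene Ddx3y was between 65.0 and 79.7 CPM, so sex did not differ between the groups. The libraries numbered 1 stood apart in both groups. Genes of hypoxia and glycolysis had a median log2 difference from the Tail WT mean of 2.06 in Fuz KO 1 and 1.64 in DKO 1, against 0.12 in Fuz KO 2 and 0.33 in DKO 2. For Slc2a1, the main glucose transporter of embryonic tissue, the values were 1132 and 236.0 CPM in Fuz KO and 754.7 and 284.8 CPM in DKO. None of the 35 hypoxia and glycolysis genes differed between the groups at an unadjusted p under 0.05 (median log2 -0.26). Fuz KO 1 also had the lowest sums of macrophage genes (10.9 CPM, against 24.5 to 44.7 in the other 3), cardiomyocyte genes (18.8 against 47.8 to 60.8) and neuronal genes (127.9 against 311.5 to 404.7). With Fuz KO 1 and DKO 1 both left out, 5 genes were called, all among the 7, and Celsr1 (adjusted p = 0.139) and H2-Bl (adjusted p = 0.999) were not. In tissue RNA, fewer cells of a type and less RNA per cell cannot be told apart.

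Gpr161 (ENSMUSG00000040836, chromosome 1) was at 24.3 and 42.7 CPM in the Tail Fuz KO libraries and at 2.12 and 3.29 CPM in the Tail DKO libraries. The 2 DKO libraries were far below both Fuz KO libraries. It fell 12.3-fold (log2 -3.62 ± 0.38, adjusted p = 0.00229). The change did not reach the threshold with DKO 1 left out (log2 -3.35, adjusted p = 0.0833) or in the fit of the 4 compared libraries (log2 -3.63, adjusted p = 0.212), and passed in the other 12 of 14 alternatives. With Fuz present, Gpr161 was at 46.8 and 51.5 CPM in Tail WT and at 4.98 and 4.08 CPM in Tail Gpr161 KO. Fuz (chromosome 7) was at 0.877 and 1.26 CPM in Tail Fuz KO and at 0.808 and 1.53 CPM in Tail DKO, and at 5.17 and 5.35 CPM in Tail WT. Its level was thus low in both compared groups and overlapped between them (log2 0.13 ± 0.39, adjusted p = 1). Of the 40 tested neighbours of Gpr161 on its chromosome, 20 on each side, 0 were called and 1 was lower at an unadjusted p under 0.05. Over all genes, 0.0329% were called and 2.08% were lower at that unadjusted threshold, so the neighbours did not stand out.

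Celsr1 encodes an atypical cadherin of the planar cell polarity core, which aligns cells within a sheet and is needed to close the neural tube. It was at 79.9 and 70.1 CPM in Tail Fuz KO and at 42.5 and 32.1 CPM in Tail DKO. Both DKO libraries lay below every other Tail library, since Tail WT had 64.5 and 82.7 CPM and Tail Gpr161 KO had 85.1 and 81.6 CPM. The gene fell (log2 -1.01 ± 0.15, adjusted p = 0.0407). Its log2 value ran from -1.23 to -0.82 over 14 alternatives and passed in 7 of them. The call was lost without Fuz KO 1 (adjusted p = 0.416), without Fuz KO 2 (adjusted p = 0.0509) and without DKO 2 (adjusted p = 0.727). In the Head it was at 75.7 and 67.8 CPM in Fuz KO and at 81.8 and 77.8 CPM in DKO (log2 0.15 ± 0.15).

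The other core polarity genes did not pass. Over 23 planar cell polarity genes the median log2 was -0.11. Of these, 5 were lower and 0 higher at an unadjusted p under 0.05, beside 2.08% lower over all genes. Beside Celsr1 the 5 were Wnt5a, a ligand that orients cells (log2 -0.60 ± 0.16), its receptor Ror2 (-0.58 ± 0.21), the pseudokinase receptor Ptk7 (-0.59 ± 0.19) and Prickle1 (-0.58 ± 0.23), each with an adjusted p of 1. Over 14 alternatives the log2 value of Wnt5a ran from -0.65 to -0.54. The other values moved more, from -0.85 to -0.26 for Ror2, -0.89 to -0.25 for Ptk7 and -0.98 to -0.06 for Prickle1. Wnt5a is also a member of the tail bud and segmentation list. Vangl2, a membrane protein of the core, was at 92.1 and 92.4 CPM in Tail Fuz KO and at 89.3 and 72.9 CPM in Tail DKO (log2 -0.19 ± 0.15, adjusted p = 1). The paralogue Celsr2 was at 22.5 and 32.9 CPM in Fuz KO and at 32.1 and 17.9 CPM in DKO, and its groups overlapped.

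**Figure D2:**
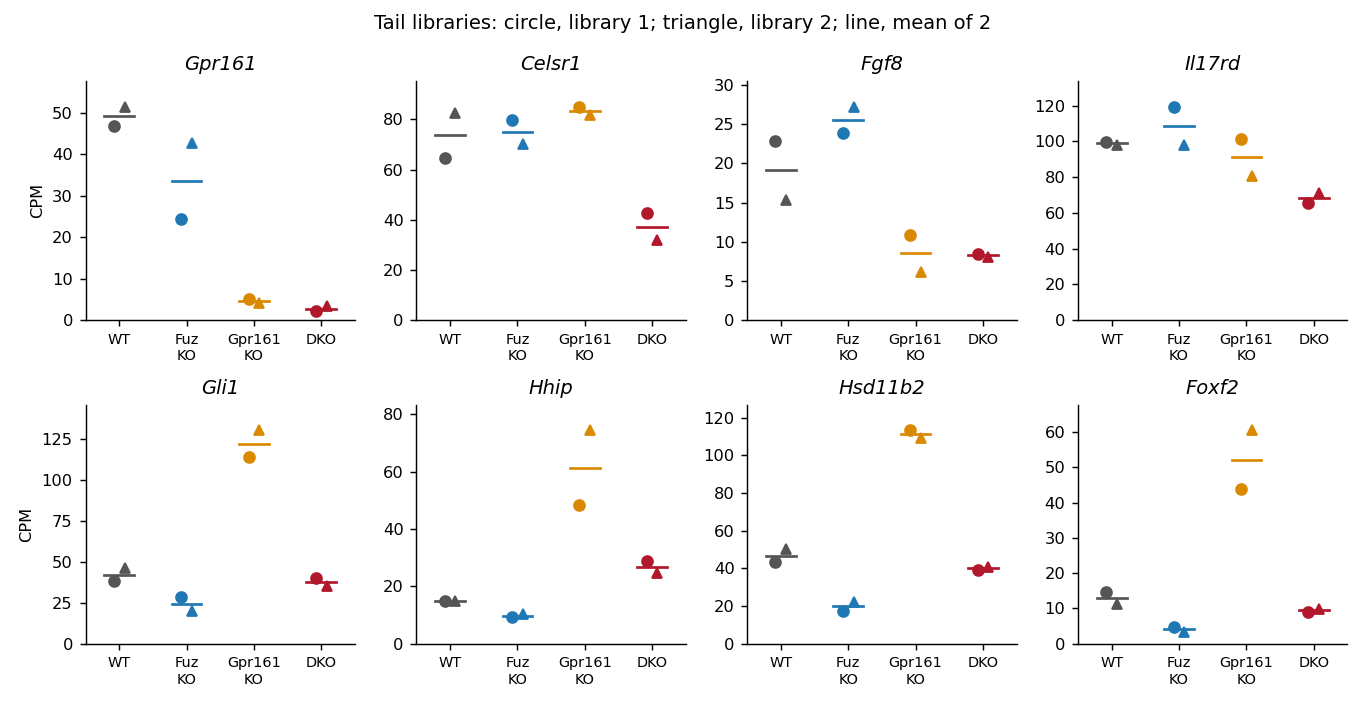
CPM of 8 genes in the 8 Tail libraries, by genotype. Circles are library 1, triangles are library 2 and lines are the mean of 2, and each axis starts at 0. Gpr161 is low in both genotypes that lack it, Celsr1 is low in the DKO libraries (42.5 and 32.1 CPM), and the 4 Hedgehog target genes of the lower row have both DKO libraries above both Fuz KO libraries and both Gpr161 KO libraries above all others.

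Of the 5 pseudogenes that fell, 4 are processed pseudogenes, copies of a spliced messenger RNA that were inserted elsewhere in the genome, and these had the largest falls among the genes called. Each is nearly identical to an expressed parent gene. Reads from a parent and its copy can be assigned to either, so these values are uncertain. In the GENCODE M21 transcripts (GRCm38), Atp6v0c-ps2 matched the proton pump gene Atp6v0c at 99.8% over 465 bases and Gm9825 matched the splicing factor gene Rnps1 at 99.4% over 843. Rpl34-ps1 matched the ribosomal protein gene Rpl34 at 99.4% over 354 bases, and Gm6969 matched Cox7a2l, a nuclear gene for a mitochondrial protein, at 98% over 342. H2-Bl, a polymorphic pseudogene of the class I histocompatibility family on chromosome 17, matched H2-D1 at 90.4% over 999. The stretches of 60 bases below lie in the coding part of each parent, 5′ to 3′ on the sense strand, and are shown because so few bases part each copy from its parent. Capitals mark the bases that differ.
Rpl34-ps1: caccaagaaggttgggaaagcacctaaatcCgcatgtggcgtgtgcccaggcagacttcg
Rpl34: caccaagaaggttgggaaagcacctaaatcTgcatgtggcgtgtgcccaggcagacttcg
Gm9825: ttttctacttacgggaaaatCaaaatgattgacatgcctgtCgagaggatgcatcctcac
Rnps1: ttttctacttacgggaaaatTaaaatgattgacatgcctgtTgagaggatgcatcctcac
Atp6v0c-ps2: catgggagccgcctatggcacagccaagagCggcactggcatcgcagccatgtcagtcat
Atp6v0c: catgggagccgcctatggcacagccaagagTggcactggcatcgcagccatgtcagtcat
Gm6969: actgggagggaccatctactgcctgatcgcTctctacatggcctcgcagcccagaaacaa
Cox7a2l: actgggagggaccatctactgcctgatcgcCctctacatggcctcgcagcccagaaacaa

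Rpl34-ps1 (chromosome 6) was at 33.6 and 39.5 CPM in Tail Fuz KO and at 2.17 and 2.74 CPM in Tail DKO (log2 -3.89 ± 0.25, adjusted p = 2.24e-05). It was also low in Tail Gpr161 KO, at 1.61 and 1.19 CPM, and was at 43.7 and 37.5 CPM in Tail WT. The 2 genotypes with Gpr161 were thus high and the 2 without it low. Gm9825 (chromosome 6) was at 17.6 and 16.8 CPM in Fuz KO and at 0.854 and 0.979 CPM in DKO (log2 -4.22 ± 0.31, adjusted p = 4.3e-05). Atp6v0c-ps2 (chromosome 6) was at 8.975 and 9.75 CPM in Fuz KO and at 0.208 and 0.333 CPM in DKO (log2 -5.08 ± 0.44, adjusted p = 0.000218). Both were high in WT and in Gpr161 KO, so among the 4 Tail genotypes the DKO alone was low. Gm6969 (chromosome 12) went the other way among genotypes, with 13.3 and 17.5 CPM in Fuz KO, 0.600 and 0.274 CPM in DKO, and at most 0.379 CPM in WT and Gpr161 KO. It fell in DKO (log2 -5.15 ± 0.56, adjusted p = 0.00229). H2-Bl was at 3.20 and 2.30 CPM in Fuz KO and at 0.462 and 0.333 CPM in DKO (log2 -2.79 ± 0.39, adjusted p = 0.0266), passing in 6 of 13 alternatives. Gm9825, Gm6969 and H2-Bl fall outside the rule for naming genes and were chosen after their values were seen. None of the parents passed: Atp6v0c was at log2 0.64 ± 0.23, Rpl34 at 0.48 ± 0.21, Rnps1 at 0.31 ± 0.20 and Cox7a2l at 0.05 ± 0.21, each with an adjusted p of 1.

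The Head libraries gave the same order for these genes. Head DKO against Head Fuz KO, which shares no library with the Tail comparison, had 6 genes called (0.0282%). The 2 sets shared 5 genes, which are 71.4% of the Tail calls and 83.3% of the Head calls: Gpr161 (Head log2 -3.12 ± 0.37), Rpl34-ps1 (-4.39 ± 0.26), Gm9825 (-4.39 ± 0.31), Atp6v0c-ps2 (-4.03 ± 0.41) and Gm6969 (-6.74 ± 0.62). H2-Bl was at 2.49 and 2.73 CPM in Head Fuz KO and at 0.542 and 0.379 CPM in Head DKO, and missed the threshold there (log2 -2.50 ± 0.39, adjusted p = 0.0554). The sixth Head gene was AI506816, an RNA gene of chromosome 5, which rose in the Head (log2 1.13 ± 0.17, adjusted p = 0.0465). Its Tail level was 35.8 and 53.8 CPM in Fuz KO and 76.3 and 90.1 CPM in DKO, with an adjusted p of 0.299. Head and Tail libraries of a genotype may come from the same embryos, which the labels do not say. Across genes, the difference of library 1 and library 2 correlated between Tail and Head with r = 0.592 in Fuz KO and r = 0.513 in DKO. The fit treats all 16 libraries as independent, so the Head values are no separate evidence if embryos were shared, and the same limit holds for the test between regions.

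**Figure D3:**
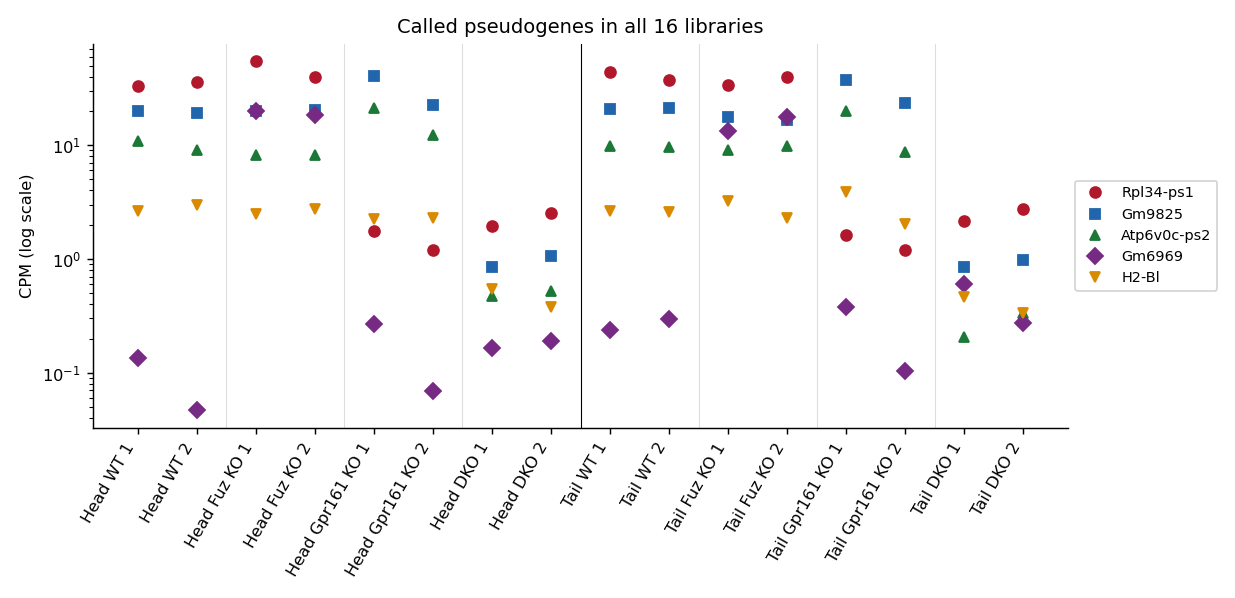
CPM on a log axis of the 5 called pseudogenes in all 16 libraries, Head on the left and Tail on the right. Rpl34-ps1 is low in both genotypes without Gpr161, Gm9825, Atp6v0c-ps2 and H2-Bl are low in the 4 DKO libraries, and Gm6969 is high in the 4 Fuz KO libraries.

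Hedgehog target genes, which report the output of the pathway, were higher in DKO in part of the list, without passing the test over all genes. Of 18 targets, 0 were called, 6 were higher at an unadjusted p under 0.05 and 0 were lower, beside 1.61% higher over all genes. The median log2 fold change was 0.36. Among the 6 were Gli1, Hhip, Foxf2, Hsd11b2 and Ccnd2. With Fuz KO 1 and DKO 1 left out the count was 4 and the median 0.20.

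Gli1, the transcription factor whose level follows pathway activity, was at 28.3 and 20 CPM in Fuz KO and at 40.0 and 35.4 CPM in DKO. The groups did not overlap and DKO lay close to Tail WT, which had 38.2 and 45.9 CPM (log2 0.64 ± 0.18, adjusted p = 1). Hhip, a membrane protein that binds and sequesters the ligand, was at 9.18 and 10.2 CPM in Fuz KO and at 28.7 and 24.7 CPM in DKO. Here both DKO libraries were above WT (14.9 and 15.0 CPM) as well as above Fuz KO (log2 1.46 ± 0.33, adjusted p = 0.896 by edgeR and 0.016 by DESeq2). Hsd11b2, which inactivates glucocorticoids, was at 17.6 and 21.98 CPM in Fuz KO and at 39.2 and 40.9 CPM in DKO (log2 1.01 ± 0.23, adjusted p = 0.848 by edgeR and 0.0402 by DESeq2). Foxf2, a forkhead factor of mesenchyme next to Hedgehog sources, was at 4.72 and 3.43 CPM in Fuz KO and at 9.05 and 9.95 CPM in DKO (log2 1.22 ± 0.34, adjusted p = 1). Both genes lay between Fuz KO and WT in the DKO libraries.

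Ptch1, the ligand's receptor and a feedback inhibitor, was at 157.5 and 101.2 CPM in Fuz KO and at 184.1 and 135.8 CPM in DKO, and the groups overlapped (log2 0.31 ± 0.26, adjusted p = 1). The cell cycle gene Ccnd2 was at log2 0.42 ± 0.16. Foxf1 (0.47 ± 0.48), Foxl1 (0.57 ± 0.39) and Nkx3-2 (0.89 ± 0.46) were also above 0, while Foxc2 (-0.49 ± 0.43), Foxd1 (-0.38 ± 0.35), Osr1 (-0.26 ± 0.51) and Prdm1 (-0.62 ± 0.57) were below it, and none of these 7 reached an unadjusted p under 0.05. Rasl11b was at -0.02 ± 0.18 and Mycn at -0.24 ± 0.26.

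Loss of Gpr161 with Fuz present gave larger values for most of these targets, although no difference between the effects passed for any of them. In Tail Gpr161 KO against Tail WT, which shares no library with the DKO comparison, 17 genes rose (0.0799%) and 48 fell (0.226%), and 6 of the 18 Hedgehog targets rose, with a median log2 of 1.25 over the list. Gli1 was at log2 1.54, Ptch1 at 1.89, Hhip at 2.04, Foxf2 at 2.01 and Hsd11b2 at 1.25. The difference between the 2 effects was tested as an interaction, which called 9 genes (0.0423%), 0 of them Hedgehog targets. For Ptch1 the effect was lower by 1.58 in log2 without Fuz (SE 0.36, adjusted p = 0.321), for Gli1 by 0.89 (SE 0.26, adjusted p = 0.523), for Hhip by 0.58 (SE 0.46, adjusted p = 0.888) and for Hsd11b2 by 0.23 (SE 0.32, adjusted p = 0.937). Tail WT libraries were female, by Xist, and the Gpr161 KO libraries were 1 male and 1 female, whereas the Fuz KO and DKO libraries were male. The part of sex in the interaction was not tested.

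Dorsal genes of the neural tube passed the interaction test in 4 of 30 cases, all with a smaller fall without Fuz (Pax7, Pax3, Msx3 and Atoh1). In a fit of the 8 Tail libraries Pax7 (adjusted p = 0.0371) and Pax3 (adjusted p = 0.00667) passed, and Msx3 (adjusted p = 0.148) and Atoh1 (adjusted p = 0.189) did not, with log2 differences of 4.96 and 9.62. Pax3, a factor of the dorsal tube and somites, was at 46.6 and 50.9 CPM in Fuz KO and at 39.65 and 34.0 CPM in DKO (log2 -0.40 ± 0.15, adjusted p = 1), but fell from 55.5 and 54.7 CPM in WT to 7.87 and 8.24 CPM in Gpr161 KO. The effects differed by 2.37 in log2 (SE 0.22, adjusted p = 0.00066). Pax7 was at 3.92 and 7.46 CPM in Fuz KO and at 7.30 and 4.00 CPM in DKO, which overlap, and at 0.0948 and 0.0517 CPM in Gpr161 KO (difference 6.96 ± 0.60, adjusted p = 0.000353). Msx3 was at 6.78 and 12.2 CPM in Fuz KO and at 8.06 and 6.775 CPM in DKO, against 0.190 and 0.620 CPM in Gpr161 KO (difference 4.97 ± 0.58, adjusted p = 0.00497). Of 30 dorsal genes, 7 fell in Gpr161 KO and 0 in DKO against Fuz KO, where the median was -0.38. In DKO, 5 were lower at an unadjusted p under 0.05, beside 2.08% lower over all genes. Among the 5 were Pax3, Wnt3a and the zinc finger genes Zic2 (-0.69 ± 0.23) and Zic5 (-0.73 ± 0.24).

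**Figure D4:**
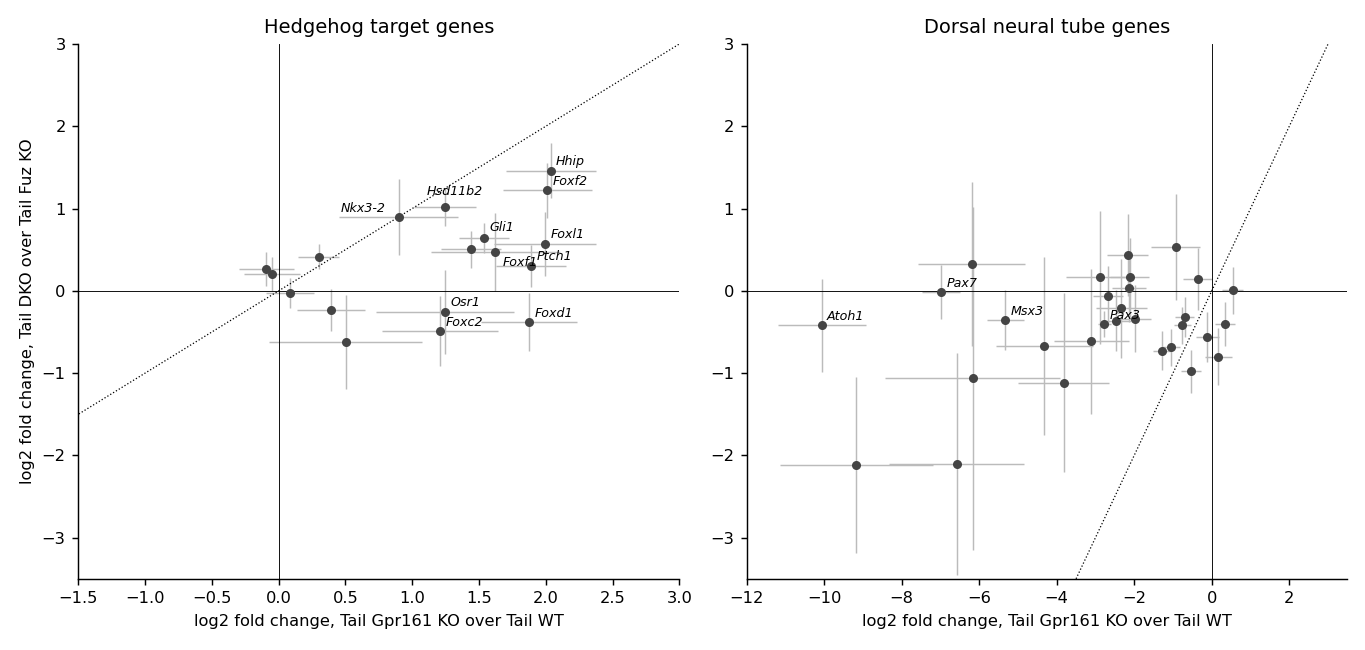
The log2 fold change of Tail DKO over Tail Fuz KO (vertical) against that of Tail Gpr161 KO over Tail WT (horizontal), for 18 Hedgehog target genes (left) and 30 dorsal neural tube genes (right). Points are genes, bars are standard errors and the dotted line marks equal effects. Hhip, Foxf2, Gli1 and Ptch1 lie below the dotted line, and Pax7 and Pax3 lie near 0 on the vertical axis.

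Ventral factors, which need high Hedgehog activity, did not pass in DKO against Fuz KO. Foxa2, the master gene of the floor plate, was at 1.24 and 1.01 CPM in Fuz KO and at 0.924 and 1.21 CPM in DKO (log2 -0.07 ± 0.41, adjusted p = 1), while Gpr161 KO had 33.65 and 31.6 CPM. Shh, the ligand itself, was at 7.14 and 8.59 CPM in Fuz KO and at 5.64 and 7.99 CPM in DKO, and these overlapped (log2 -0.21 ± 0.32, adjusted p = 1). Nkx6-1, a ventral progenitor factor, was at 7.20 and 5.06 CPM in Fuz KO and at 13.6 and 4.01 CPM in DKO, so the DKO libraries lay on both sides of the Fuz KO libraries. The motor neuron progenitor gene Olig2 had the same order, with 5.91 and 6.57 CPM in Fuz KO and 14.6 and 5.46 CPM in DKO. Pax6 of the intermediate tube was at log2 0.10 ± 0.35. Of 27 ventral neural tube genes, 0 were called, 1 was higher and 2 were lower at an unadjusted p under 0.05. Over all genes, 1.61% were higher and 2.08% lower at that threshold.

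The signalling machinery between ligand and Gli held no called gene other than Gpr161. Over all genes, 2.08% were lower and 1.61% higher at an unadjusted p under 0.05. Of 39 Hedgehog pathway components other than Gpr161, 0 were called, 3 were lower and 0 higher at that threshold, with a median log2 of -0.11. Among the 3 were Gnas, the G protein subunit through which Gpr161 signals to cyclic AMP (log2 -0.52 ± 0.22) and the receptor kinase gene Grk3 (-0.87 ± 0.35), each with an adjusted p of 1. Smo, the transducer that enters the cilium, was at 200.2 and 245.1 CPM in Fuz KO and at 230.9 and 235.9 CPM in DKO (log2 0.07 ± 0.13). The Gli inhibitor gene Sufu was at log2 -0.05 ± 0.12, Gli2 at -0.19 ± 0.14 and Gli3 at -0.20 ± 0.15. The co-receptor genes Gas1 (-0.09 ± 0.16), Cdon (-0.34 ± 0.17) and Boc (-0.34 ± 0.22) did not pass either. Gas1 and Cdon fell in Gpr161 KO against WT, by 1.23 and 1.34 in log2, and the interaction gave 1.14 ± 0.23 for Gas1 (adjusted p = 0.171) and 1.00 ± 0.25 for Cdon (adjusted p = 0.405). Genes of the CPLANE complex and intraflagellar transport, the cargo system of the cilium, had a median of -0.00127. Of these 31, 1 was lower and 0 higher at an unadjusted p under 0.05, beside 2.08% lower over all genes.

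Genes of the tail bud and of segmentation were lower in DKO in the largest number among the lists. The tail bud holds progenitors that extend the body, and its segmentation clock parts the new mesoderm into somites. None of the 28 genes was called, but 17 were lower and 0 higher at an unadjusted p under 0.05, beside 2.08% lower over all genes, and the median log2 was -0.99. The number depended on single libraries, since 4 were lower without Fuz KO 1 (median -0.51), 5 without DKO 2 and 5 without both number 1 libraries (median -0.62). By library, the median log2 difference from the Tail WT mean was 0.67 in Fuz KO 1, -0.02 in Fuz KO 2, -0.41 in DKO 1 and -0.70 in DKO 2. Fuz KO 1 was thus above WT, Fuz KO 2 level with it and both DKO libraries below it. Among the Tail libraries, Fuz KO 1 is also the one with the highest hypoxia and glycolysis genes. The part of that state, or of where the tissue was cut, in the result was not tested.

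Fgf8, the growth factor that holds tail bud cells in their progenitor state, was at 23.9 and 27.2 CPM in Fuz KO and at 8.41 and 8.09 CPM in DKO. The 2 DKO libraries were close to each other and below both Fuz KO libraries, and the group level was 3.1-fold lower (log2 -1.63 ± 0.32, adjusted p = 0.366 by edgeR and 0.000406 by DESeq2). Its value was -1.75 with Fuz KO 1 and DKO 1 left out. Tail WT had 22.9 and 15.3 CPM and Gpr161 KO had 10.8 and 6.17 CPM, so both genotypes without Gpr161 had the lower Fgf8 levels (interaction -0.47 ± 0.44, adjusted p = 0.91). The tail bud list mostly went the other way in Gpr161 KO against WT, with 22 of 28 genes above 0 (median log2 0.80). At an unadjusted p under 0.05, 8 were higher and 1 lower, beside 641 and 845 of the 21284 genes tested. In the interaction 0 of the list were called and 15 were lower at that threshold, beside 629 of all genes (median -1.82).

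For other tail bud genes Fuz KO 1 stood above Fuz KO 2. Brachyury (T), needed to form posterior mesoderm, was at 55.6 and 27.7 CPM in Fuz KO and at 16.5 and 14.7 CPM in DKO (log2 -1.42 ± 0.51, adjusted p = 1). Tbx6, which commits cells to paraxial mesoderm, was at 22.6 and 9.09 CPM in Fuz KO and at 4.92 and 3.27 CPM in DKO (log2 -1.95 ± 0.53, adjusted p = 1). Cdx2, a posterior homeobox factor, was at 45.7 and 11.7 CPM in Fuz KO and at 6.60 and 5.62 CPM in DKO. Its log2 value moved from -2.23 to -0.94 without Fuz KO 1. Fgf17 was at 20.9 and 6.72 CPM in Fuz KO and at 3.05 and 3.37 CPM in DKO (log2 -2.10 ± 0.53, adjusted p = 1). Clock and boundary genes varied in size, with Hes7 at -1.31 ± 0.53, the Notch ligand gene Dll3 at -1.26 ± 0.42, Mesp2 at -2.15 ± 0.91 and Lfng, which modifies Notch, at -0.30 ± 0.28. Tbx18, of the anterior part of each somite, was the 1 member above 0 (0.29 ± 0.33).

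**Figure D5:**
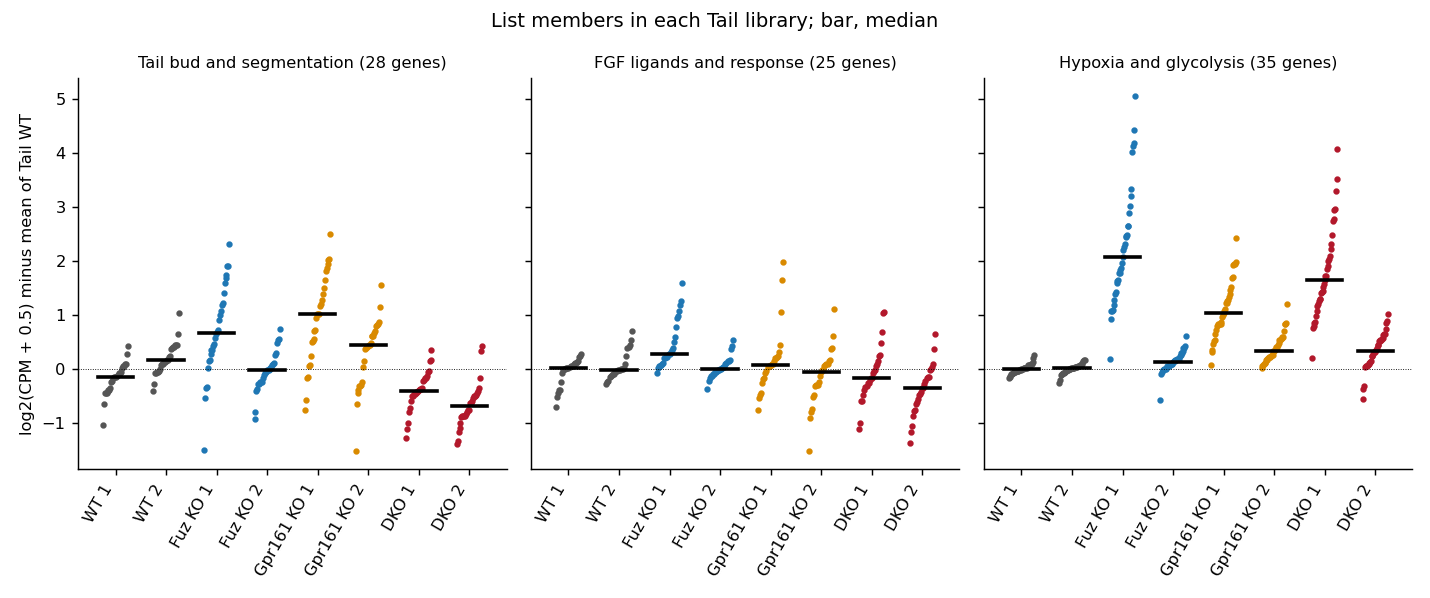
The log2(CPM + 0.5) of list members minus the mean of the 2 Tail WT libraries, in each of the 8 Tail libraries, for tail bud and segmentation genes (left), FGF ligands and response genes (middle) and hypoxia and glycolysis genes (right). Points are genes in order of value and bars are medians. The tail bud bars of the DKO libraries (-0.41 and -0.70) are below those of the Fuz KO libraries (0.67 and -0.02), and the hypoxia bars are high in Fuz KO 1 and DKO 1.

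The FGF ligand and response list shares Fgf8, Fgf17 and Dusp4 with the tail bud list. Of its 25 genes, 0 were called, 13 were lower and 0 higher at an unadjusted p under 0.05, with a median of -0.46. Over all genes, 2.08% were lower at that threshold. There were 5 lower without Fuz KO 1, 6 without DKO 2 and 5 without both number 1 libraries, where the median was -0.41. Il17rd, which restrains FGF receptor signalling and is induced by it, was at 119.4 and 97.8 CPM in Fuz KO and at 65.4 and 71.0 CPM in DKO. Both DKO libraries were below all 6 other Tail libraries, of which the lowest had 80.7 CPM (log2 -0.67 ± 0.14, adjusted p = 0.442 by edgeR and 0.0128 by DESeq2). Spry4, a feedback inhibitor of the same pathway, was at 25.2 and 23.0 CPM in Fuz KO and at 14.1 and 11.4 CPM in DKO (log2 -0.92 ± 0.22). Other feedback genes had smaller differences, with Spry2 at -0.52 ± 0.19, Dusp6 at -0.46 ± 0.17, Etv4 at -0.43 ± 0.16 and Etv5 at -0.33 ± 0.13. The receptor gene Fgfr1 was at 165.1 and 145.3 CPM in Fuz KO and at 121.6 and 101.8 CPM in DKO (log2 -0.47 ± 0.12), while Fgfr2 was at -0.16 ± 0.15 and Fgfr3 at 0.23 ± 0.31. None of these passed (adjusted p = 1 each, but for Il17rd).

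The Head gave other values for these lists. In Head DKO against Head Fuz KO, 1.74% of genes were lower and 1.16% higher at an unadjusted p under 0.05, and of the FGF list 0 were lower and 1 was higher, with a median of 0.05. The tail bud list had 0 lower and 2 higher there, with a median of 0.00494. The difference between regions was tested as an interaction, in which 0 genes were called by edgeR (0%), 433 reached an unadjusted p under 0.05 and DESeq2 called 1. Lower in the Tail at that unadjusted threshold were 10 of 25 FGF genes and 7 of 28 tail bud genes, beside 1.05% of all genes. Celsr1 differed by -1.16 ± 0.21, Wnt5a by -1.13 ± 0.23, Il17rd by -0.86 ± 0.19 and Fgf8 by -1.53 ± 0.44 in log2, each with an adjusted p of 1.

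Posterior Hox genes, which give caudal tissue its position, had log2 values below 0 in 15 of 17 cases, with a median of -0.52, and 2 reached an unadjusted p under 0.05. Hoxc10 was at 76.8 and 63.8 CPM in Fuz KO and at 41.1 and 44.7 CPM in DKO (log2 -0.71 ± 0.17, adjusted p = 1). Hoxc12 was at 5.26 and 9.58 CPM in Fuz KO and at 2.54 and 2.04 CPM in DKO (log2 -1.70 ± 0.48, adjusted p = 1). Hoxd13, of the distal limb and cloacal region, was at 39.8 and 35.02 CPM in Fuz KO and at 37.9 and 52.7 CPM in DKO, where the groups overlapped. The number of the 17 that were lower at an unadjusted p under 0.05 depended on the setting. It was 9 in a fit of the 8 Tail libraries alone and 10 with no filter on low counts. With DESeq2 it was 6, with a replicate block 3 and with RLE scaling 2. The hindlimb genes Tbx4 (log2 -0.05 ± 0.23) and Pitx1 (-0.09 ± 0.23) were near level. Of the 35 genes in the limb list, 28 had log2 values below 0, with a median of -0.40. In that list 4 were lower at an unadjusted p under 0.05, namely Fgf8, Grem1, Sall1 and Sall3 (-1.29 ± 0.28, adjusted p = 0.721). For both the Hox and the limb list, the values over all genes were 2.08% lower at that threshold and a median of 0.0097.

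Wnt feedback genes had 5 of 28 lower and 0 higher at an unadjusted p under 0.05, beside 2.08% lower over all genes. Their median was -0.16. Lef1, a nuclear partner of beta-catenin, was at 57.9 and 36.8 CPM in Fuz KO and at 29.5 and 26.3 CPM in DKO (log2 -0.76 ± 0.21), and Axin2, the standard Wnt target, was at 67.4 and 60.9 CPM against 54.9 and 46.7 CPM (log2 -0.34 ± 0.14). Both DKO libraries were below both Fuz KO libraries for each gene, and neither passed (adjusted p = 1). The log2 value of Lef1 ran from -1.07 to -0.41 over 14 alternatives. Whether the count of 5 depends on single libraries was not tested.

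Extracellular matrix genes mostly had log2 values above 0, in 18 of 28 cases. Of the 28, 0 were called, 7 were higher and 1 was lower at an unadjusted p under 0.05, with a median of 0.40. Over all genes, 1.61% were higher and 2.08% lower at that threshold, and the median was 0.0097. The 7 included Col5a2, a fibrillar collagen, at 142.9 and 148.5 CPM in Fuz KO and at 201.6 and 236.3 CPM in DKO (log2 0.59 ± 0.18, adjusted p = 1), and Sparc at 278.4 and 275.4 CPM against 411.2 and 349.8 CPM (log2 0.46 ± 0.14). Postn, Lum and Dcn had larger values (1.53 ± 0.50, 2.10 ± 0.73 and 1.48 ± 0.45). Lum was at 13.8 and 45.2 CPM in Fuz KO and at 106.9 and 145.3 CPM in DKO, and the lowest value was that of Fuz KO 1. Without Fuz KO 1, 2 genes were higher, and without both number 1 libraries the median was -0.06.

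Outside these groups, the genes that the naming rule added from the lowest unadjusted p-values did not pass. Adamtsl2, a matrix protein, was at 16.6 and 8.25 CPM in Fuz KO and at 3.97 and 3.07 CPM in DKO (log2 -1.82 ± 0.35, adjusted p = 0.366). On the higher side, Impact was at 80.2 and 74.4 CPM in Fuz KO and at 110.8 and 117.4 CPM in DKO (log2 0.56 ± 0.13, adjusted p = 0.848). Bmp5, a growth factor of mesenchyme, was at 8.54 and 11.7 CPM in Fuz KO and at 19.7 and 24.6 CPM in DKO (log2 1.13 ± 0.31, adjusted p = 1). Proliferation, p53 target, neuronal, erythroid, cardiomyocyte and macrophage lists had 0 members at an unadjusted p under 0.05 in either direction.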

How the data were processed

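RNA was sequenced from the Head and Tail of E10.5 mouse embryos of 4 genotypes, in 16 libraries, 2 per group. Libraries were made from poly-A RNA, per the labels' protocols. Whole-number counts per gene were deposited for each library, by a counter, with a strand setting, that is not given in the sources used here. STAR 2.7.1a, featureCounts 1.6.0, StringTie 2.0.4, HTSeq, Picard 2.20.4 and the build GRCm39 are named, without roles, per the submitters' processing notes. Of 54838 gene identifiers, 54809 matched GENCODE M21 names.

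The counts were scaled by TMM and filtered with filterByExpr, which left 21284 genes. One edgeR 4.0.16 quasi-likelihood fit (R 4.3.3) over all 16 libraries, with 8 residual degrees of freedom, gave every contrast, and p-values were adjusted over all genes by Benjamini and Hochberg. The SE is the fold change divided by the square root of F. The script was tested on simulated data. DESeq2 1.42.0, other filters and scalings, fewer libraries, a replicate block and libraries left out in turn were alternatives. Pseudogenes were aligned to their parents with blastn 2.17.0.

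The compared groups, the gene lists and the genes named were chosen with earlier results of these data known. The naming rule took the Hedgehog targets and components, a fixed set of patterning genes, called genes with groups that do not overlap and at least 5 CPM in the higher group (filled up to 10 a direction by unadjusted p), the top member of each list and the top interaction genes, and left out unnamed gene models. Other list members were named after their values were seen. Some genes that the rule names are not reported here.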

Additional observations from a re-analysis of the deposited data

Results flagged for a closer look

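For 9 genes the effect of losing Gpr161 differed in the Tail between embryos without Fuz (DKO minus Fuz KO) and with Fuz (Gpr161 KO minus WT), by edgeR's interaction test with p adjusted over all genes. The difference is given in log2, where a value above 0 means a higher effect without Fuz. Among dorsal neural tube genes it was 6.96 for Pax7 (adjusted p = 0.000353), 2.37 for Pax3 (adjusted p = 0.00066) and 4.97 for Msx3 (adjusted p = 0.00497). It was 9.64 for Atoh1 (adjusted p = 0.0417), which had 0 counts in both Tail Gpr161 KO libraries, so that this fitted value depends on the prior count and is no bound. For Sec1, at 0.0474 and 0 CPM in Gpr161 KO and at 3.35 and 4.23 CPM in WT, it was 7.22 (adjusted p = 0.0369), with the same limit.

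Sox10, a factor of neural crest and its glia, was at 13.6 and 17.1 CPM in Fuz KO, at 19.3 and 13.4 CPM in DKO, at 19.4 and 24.2 CPM in WT and at 2.37 and 1.498 CPM in Gpr161 KO. Its difference was 3.58 (adjusted p = 0.00708). AI506816 had opposite signs in the 2 settings, 0.89 without Fuz and -0.98 with Fuz, and a difference of 1.88 (adjusted p = 0.00708). For the pseudogenes Gm9825 and Atp6v0c-ps2 the difference was -4.74 (adjusted p = 0.000353) and -5.65 (adjusted p = 0.000714). Reads of these copies could be assigned to Rnps1 and Atp6v0c or the reverse.

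In a fit of the 8 Tail libraries, Pax7, Pax3, Gm9825 and Atp6v0c-ps2 passed. Msx3 (adjusted p = 0.148), Sox10 (adjusted p = 0.0562), AI506816 (adjusted p = 0.144), Sec1 (adjusted p = 0.152) and Atoh1 (adjusted p = 0.189) did not. Atoh1 also lost its call without Tail WT 1, Fuz KO 1, or either library of Gpr161 KO or DKO (adjusted p from 0.0601 to 0.26). Sec1 lost it without either WT library, Fuz KO 1, or either library of Gpr161 KO or DKO (adjusted p from 0.0678 to 0.195). The 2 Tail WT libraries are female and the Gpr161 KO libraries 1 male and 1 female, while Fuz KO and DKO are male, and the part of sex was not tested.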

How the results depend on the processing

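The 7 calls of Tail DKO against Tail Fuz KO stayed within 4 to 10 when each library was left out, and were 7 with RLE scaling, 5 in the 8 Tail libraries and 5 with at least 5 CPM in 2 libraries. They became 151 with no filter on low counts, 2 in the 4 compared libraries and 25 with DESeq2. The cause was not tested. No direction reversed among the called genes.

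The labels do not say that equal numbers share an embryo or litter. Across genes, the difference of library 1 and 2 correlated between Tail Fuz KO and Tail DKO (r = 0.397) and not between Tail WT and Gpr161 KO (r = 0.00694). A replicate block gave 7 calls, the same 7 genes, with 1021 genes at an unadjusted p under 0.05 against 786 without it, and changed Gpr161 KO against WT from 65 calls to 122.

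With no filter, the calls were 85 for the Head (6 otherwise), 802 for Gpr161 KO against WT, 549 for the interaction (9 otherwise) and 30 for the region difference (0 otherwise), and the list counts were 13 for matrix genes and 10 for Hox genes. With DESeq2 they were 12, 316, 124 and 1 in that order of comparisons, and 6 Hox genes. In the 8 Tail libraries, Gpr161 KO against WT had 33 calls, the interaction 4 and the Hox list 9, and in the 4 libraries the Hox list had 7. Without Fuz KO 1 and DKO 1, the tail bud, FGF, matrix and Hox counts were 5, 5, 2 and 1. With the number 1 Head libraries of both genotypes also out, an alternative chosen after seeing the data, there were 8 calls (3 shared), and the tail bud, matrix and Hox counts were 5, 3 and 4. Matrix medians then were -0.06 and -0.08 against 0.40.

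Leaving out each library gave 3 to 421 Head calls (421 without Head Fuz KO 2), 0 to 1 for the region difference, 11 to 41 for Gpr161 KO against WT and 7 to 105 for the interaction (105 without Tail Fuz KO 2). List counts ran from 4 to 20 for the tail bud, 5 to 15 for FGF, 4 to 7 for Hedgehog targets, 2 to 13 for matrix genes and 2 to 4 for Hox genes. A group left with 1 library is assumed to vary like the others.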

Other observations

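In gene groups not described so far, 0 members were called between Tail DKO and Tail Fuz KO. The counts that follow are at an unadjusted p under 0.05, at which 2.08% of all genes were lower and 1.61% higher. Of 15 neural progenitor genes, 3 were lower (median log2 -0.16), of 15 neural crest genes 2 were lower (median -0.33) and of 17 floor plate and notochord genes 2 were lower (median -0.27), and 0 of these were higher. Of 29 BMP and TGF-beta genes, 2 were higher and 2 lower, and of 16 retinoic acid genes 2 were lower. Cyp26a1, the enzyme that clears retinoic acid from the tail bud, was at 42.8 and 7.51 CPM in Fuz KO and at 7.97 and 5.27 CPM in DKO (log2 -1.93 ± 0.77), and the groups overlapped. Of 27 transition zone and BBSome genes, 2 were lower, among them Cc2d2a (log2 -0.43), and Cplane1, a partner of Fuz in the CPLANE complex, was at 48.2 and 47.6 CPM in Fuz KO and at 37.5 and 37.2 CPM in DKO (log2 -0.36 ± 0.12, edgeR adjusted p = 1).

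Liver bud genes had 2 of 12 higher and a median of 1.06. Their levels were low, since the 12 summed to 22.85 and 15.01 CPM in Fuz KO and to 31.89 and 22.36 CPM in DKO. With 0.5 CPM added, the median log2 differences from the Tail WT mean were -0.27 and -0.32 in Fuz KO. In DKO they were -0.07 and -0.10. Afp, the fetal serum protein, was at 1.65 and 0.494 CPM in Fuz KO and at 10.35 and 3.37 CPM in DKO. Both DKO values were above both Fuz KO values, and where the tissue was cut was not tested.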
